A study of Mus with 5 samples.

Results

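Chromatin sites occupied by RARα and by BATF were compared in mouse CD8 T cells exposed to retinoic acid (RA), using the RARα peak list and the BATF peak list of the RA-treated cells. All 565 RARα peaks and 9894 BATF peaks on chromosomes 1 to 19, X and Y were taken, 10459 in all of the 27480 peaks in the 4 lists of the series. A peak was counted as shared, or co-bound, when the other list had a peak within 5 kb of it, and otherwise as bound by one factor. This left 90 shared RARα peaks and 475 RARα-only peaks, and 118 shared BATF peaks and 9776 BATF-only peaks.

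The cells came from the spleens of wild-type (WT) mice and are labelled as naive CD8 T cells. They were stimulated for 24 h through anti-CD3, anti-CD28 and IL-2, rested for 24 h in 100 U/ml IL-2, and then kept for 1 h with 50 nM RA, or without it in the control groups. The treatment field of the labels names a different interleukin for each sample, whereas the growth protocol names IL-2 for all. Chromatin immunoprecipitation followed by sequencing (ChIP-seq) was done with an antibody to RARα, an antibody to BATF or normal rabbit IgG, and whether the IgG cells had received RA is not stated. Each list was called on 2 pooled ChIP files against the same IgG file, and the sources do not say whether the pooled files are replicates. There is therefore 1 list per side and no spread between replicates, so no test was run. Shares are given with Wilson 95% intervals, whose width reflects counting error alone.

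RARα is a nuclear receptor that binds retinoic acid response elements together with its partner RXR. Without ligand it recruits corepressors, and with RA it exchanges them for coactivators. BATF is a basic leucine zipper protein of the AP-1 family that pairs with JUN proteins, cooperates with IRF4 and IRF8 at composite DNA elements, and drives the effector programme of activated T cells. How many of the sites of the receptor lie where BATF is also bound, and which genes those are, is the question that this pair of lists addresses for RA-treated cells.

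The pools held 22475060 fragments for RARα and 16424269 for BATF, 73.1% as many, against 11410673 for IgG. The peak caller used a p-value cutoff of 0.001 for RARα and 1e-05 for BATF, so that a RARα peak could be called on much weaker evidence. Fold enrichment is the number of fragments at the summit (the pileup) plus 1, divided by the IgG level plus 1. This level is not a count of IgG fragments. It did not fall below 2.95 in the RARα list and 2.03 in the BATF list. At peaks on that lowest level the fold follows the pileup alone. The antibodies, cutoffs and depths differ between the factors, so that a ratio of RARα fold to BATF fold ranks sites against each other and does not measure relative occupancy. All 7 CD8 T cell markers examined had a BATF peak named to them, with the highest fold enrichments at Lck (15.2) and Cd2 (15.0), and none had a RARα peak. Of the B cell and myeloid markers reported here, Cd79a, Lyz2 and Csf1r had no BATF peak named to them (although 3 BATF peaks lay within 10 kb of Cd79a), Ms4a1 had 2 (highest fold 13.2) and Itgam had 1 (7.27). Peaks report binding and not expression, so these values describe the lists without identifying the cells.

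Of the RARα peaks, 15.9% (13.1 to 19.2) had a BATF peak within 5 kb, and of the BATF peaks 1.19% (0.997 to 1.43) had a RARα peak. These shares are the background against which the groups of sites below are read. The shared peaks fell into 90 separate loci, of which 68 held 1 peak of each factor and 22 held 2 to 4 BATF peaks around 1 RARα peak. At most of these loci the factors sat on the same stretch of DNA. The RARα peak overlapped a BATF peak at 69 of the 90 loci (76.7%, 66.9 to 84.2), and its summit lay inside the nearest BATF peak at 62. Among the 69 overlapping pairs the summits were a median of 122 bp apart (quartiles 53 and 249), and 52 pairs (75.4%, 64.0 to 84.0) had summits within 250 bp.

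**Figure D1:**
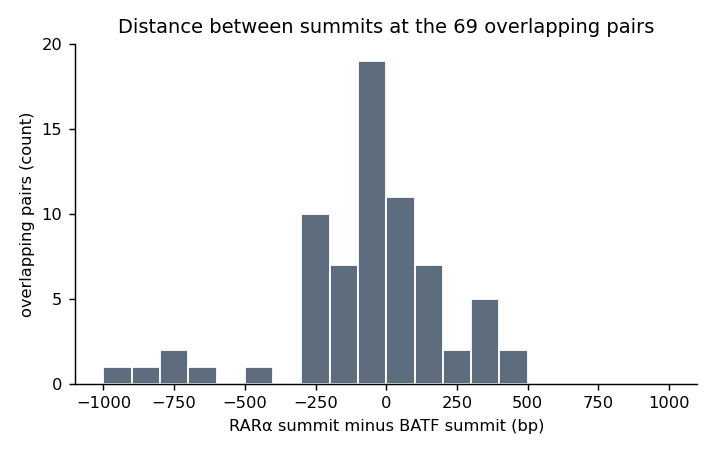
Signed distance in bp between the RARα summit and the BATF summit (horizontal axis) at the 69 overlapping pairs with RA, counted in bins of 100 bp (vertical axis, pairs). Most pairs are centred near 0, with 52 of 69 within 250 bp.

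The remaining 21 shared RARα peaks did not touch a BATF peak, with gaps from 11 bp upwards and a median of 1373 bp. The widest gap that still counted as shared was 4958 bp, in an intron of Smad3, a signal transducer of TGF-β. The closest pair that did not count was 5852 bp apart, and 10 RARα peaks lay between 5 and 10 kb from BATF. Beyond these the separation was large. The RARα-only peaks had a median distance of 393555 bp to the nearest BATF peak, and 346 of 475 (72.8%, 68.7 to 76.6) were over 100 kb away.

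The promoter share of the shared sites lay between those of the RARα-only and the BATF-only sites. Promoters made up 31 of the 90 shared RARα peaks (34.4%, 25.4 to 44.7) but 14 of the 475 RARα-only peaks (2.95%, 1.76 to 4.89). From the BATF side, promoters made up 47 of the 118 shared peaks (39.8%, 31.5 to 48.8) and 6344 of the 9776 BATF-only peaks (64.9%, 63.9 to 65.8). The shared sites were thus richer in promoters than other RARα sites and poorer in them than other BATF sites. Introns held 27 of the 90 shared RARα peaks and 156 RARα-only peaks (32.8%), a small difference. Intergenic positions held 31 shared RARα peaks (34.4%) and 302 RARα-only peaks (63.6%), and 36 shared BATF peaks (30.5%) against 1569 BATF-only peaks (16.0%). The paired peaks carried the same class at 85 of the 90 sites.

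**Figure D2:**
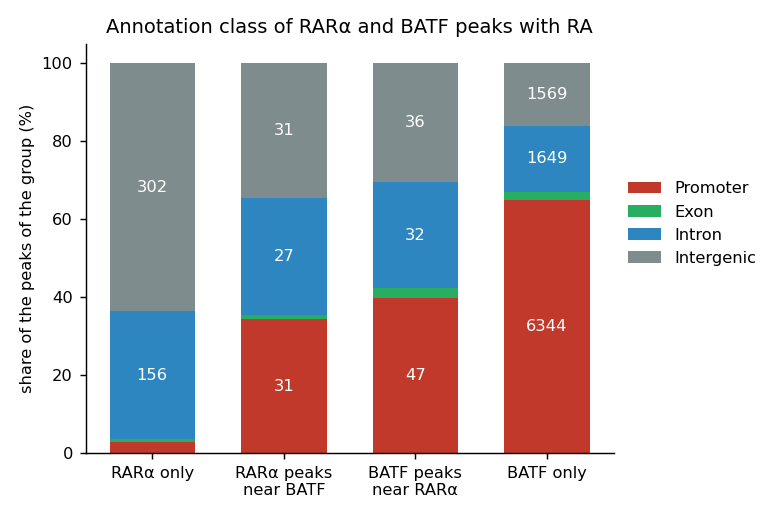
Share in percent (vertical axis) of promoter, exon, intron and intergenic peaks among RARα-only peaks, RARα peaks near BATF, BATF peaks near RARα and BATF-only peaks with RA, with peak counts printed in segments above 4%. Promoters rise from 2.95% of RARα-only peaks to 34.4% and 39.8% at the shared sites and 64.9% of BATF-only peaks.

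Read the other way, 31 of the 45 RARα promoter peaks (68.9%, 54.3 to 80.5) lay near a BATF peak, against 27 of 183 in introns (14.8%, 10.3 to 20.6) and 31 of 333 between genes (9.31%, 6.64 to 12.9). The class and the strength of the RARα peak both went with this share. Among RARα peaks that would also pass the BATF cutoff of 1e-05, 13 of 16 promoter, 21 of 40 intron and 21 of 63 intergenic peaks were shared. Among weaker peaks the promoters kept a high share, 18 of 29 (62.1%, 44.0 to 77.3), whereas introns had 6 of 143 (4.20%, 1.94 to 8.85) and intergenic positions 10 of 270 (3.70%, 2.02 to 6.68). The BATF list itself was mostly promoter peaks, and its part in the promoter share was not tested.

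Repeat elements set the RARα-only sites apart from the shared ones. LINE elements, the long retrotransposons that make up much of the mouse genome, held 111 of the RARα-only peaks (23.4%, 19.8 to 27.4) and 0 of the 90 shared RARα peaks, which allows a share of up to 3.33% by a limit of 3 counts, and of up to 4.09% by the Wilson interval. Any repeat class was named at 231 RARα-only peaks (48.6%, 44.2 to 53.1) and 11 shared peaks (12.2%, 6.96 to 20.6). LTR elements differed less, with 61 RARα-only peaks (12.8%, 10.1 to 16.2) and 8 shared peaks (8.89%, 4.57 to 16.6). From the BATF side the direction was the other way. Any repeat class was named at 18 shared BATF peaks (15.3%, 9.87 to 22.8) and 663 BATF-only peaks (6.78%, 6.30 to 7.30). For LINE elements the BATF shares were close, 1.69% and 1.27%. The RARα LINE peaks had a median RARα fold of 3.03 and a highest of 5.31. Of these 111 peaks, 17 (15.3%, 9.79 to 23.2) reached a p-value of 1e-05, a share close to that of all RARα-only peaks (13.7%). The promoter peak of P2rx7 is one of them. Of the 111 LINE peaks, 45 carried a name of the L1Md group, the young mouse L1 subfamilies, led by L1Md_T with 18, L1Md_A with 12 and L1Md_F2 with 10. Near-identical copies of such elements share reads, so that the position of a peak among copies is uncertain. The RARα control list had a peak near 5 of the 111. In the control lists, LINE elements held 71 of the 434 RARα-only peaks (16.4%) and 16 of the 726 shared ones (2.204%), so LINE elements were also more frequent away from BATF there. With LINE peaks set aside, 90 of the remaining 454 RARα peaks (19.8%, 16.4 to 23.7) were shared.

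RARα fold enrichment was higher at shared than at RARα-only sites, while BATF fold enrichment differed little at the 5 kb limit. The RARα fold enrichment had a median of 3.35 at shared peaks (quartiles 2.84 and 4.72) and 2.78 at RARα-only peaks (quartiles 2.76 and 3.04). This gap depended on whether a RARα control peak lay within 5 kb. Without one, the median was 2.78 at both the 24 shared and the 443 RARα-only peaks. With one, it was 4.05 at 66 shared and 3.54 at 32 RARα-only peaks. The median pileup was 16 against 11 fragments, the median -log10 p was 5.99 against 3.96, and the median length was 352.5 against 302 bp. A p-value of at most 1e-05 was reached by 55 of the 90 shared peaks (61.1%, 50.8 to 70.5) and 65 of the 475 RARα-only peaks (13.7%, 10.9 to 17.1). Few fragments lay behind most RARα-only peaks. A pileup of 12 or fewer was seen at 394 of them (82.9%, 79.3 to 86.1) and at 29 shared peaks (32.2%, 23.5 to 42.4), and the IgG level was at the lowest level of the list at 389 RARα-only and 42 shared peaks. At such counts, weak binding and chance pile-ups of background fragments cannot be told apart.

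The share of RARα peaks near BATF went with the number of fragments. It was 29 of 423 (6.86%, 4.82 to 9.67) for summits of 9 to 12 fragments, with no order among these 4 pileup values beyond their intervals, and 9 of 57 (15.8%, 8.54 to 27.4) for 13 to 14. It was 15 of 31 (48.4%, 32.0 to 65.2) for 15 to 19, 22 of 33 (66.7%, 49.6 to 80.2) for 20 to 29 and 15 of 21 (71.4%, 50.0 to 86.2) for 30 to 58. From 15 fragments on the intervals of the 3 bins overlap, and together 52 of 85 such peaks (61.2%, 50.5 to 70.8) were shared. The share of 15.9% over the whole list is therefore an average over a large weak part and a small strong part.

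**Figure D3:**
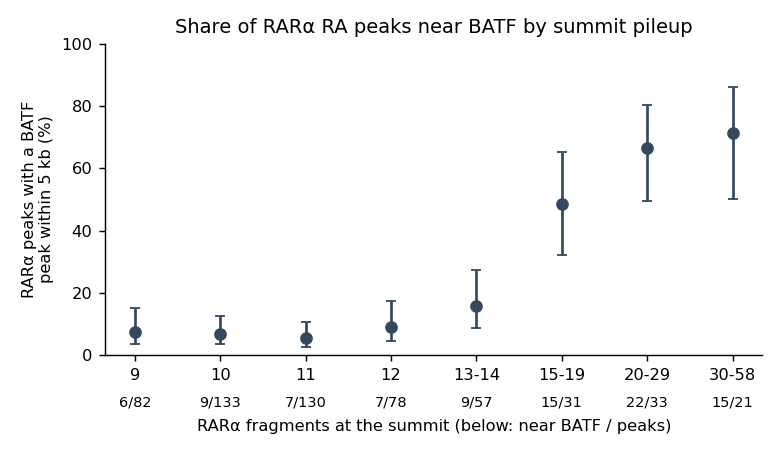
Share of RARα RA peaks with a BATF RA peak within 5 kb (vertical axis, percent) by the number of RARα fragments at the summit (horizontal axis), with shared and total peaks printed below each bin and bars for the Wilson 95% interval. The share is 5.38% to 8.97% from 9 to 12 fragments and 48.4% to 71.4% from 15 fragments on.

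For BATF the median fold was 5.69 at shared peaks (quartiles 4.64 and 8.16) and 5.29 at BATF-only peaks (quartiles 4.30 and 6.94), and the median pileup was 22 fragments in both. The difference was larger when only overlapping peaks counted as shared. The median was then 6.94 at 69 BATF peaks and 5.29 at the others. Across 5 equal bins of the BATF list by fold, from the weakest to the strongest, 0.707%, 1.41%, 0.910%, 1.26% and 1.67% of the peaks were shared. The strongest and the weakest bin differed most (1.19 to 2.33 against 0.422 to 1.18), and the bins between them had overlapping intervals. These bins were by fold, whereas the RARα bins above were by fragments, and the peak cutoffs differed between the lists. With 565 RARα peaks against 9894 BATF peaks, the share of BATF peaks near RARα also had less room to rise. The steepness of the BATF and RARα trends therefore cannot be compared, and a difference between the factors was not tested.

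Within the 90 pairs, the ratio of RARα fold to BATF fold had a median of 0.574 (quartiles 0.430 and 0.797) and the RARα fold was the higher one at 15 pairs (16.7%, 10.4 to 25.7). The median ratio was 0.512 at promoters, 0.597 in introns and 0.685 between genes, with wide and overlapping quartiles. Ranked within its own list, the shared RARα peak stood at a median percentile of 81.9 and its BATF partner at 64.0. Among the pairs, 35 were in the top 10% of the RARα list, which holds 55 peaks, and 13 in the top 10% of the BATF list. The lowest ratio was 0.0545, at Nfkb1, and the highest 1.63, in a region near Gtf2e2 and Gsr on chromosome 8.

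**Figure D4:**
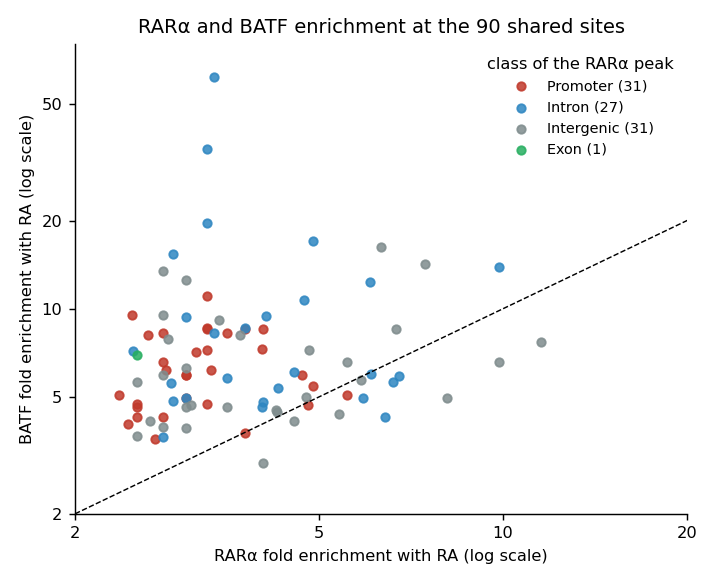
RARα fold enrichment (horizontal axis, log scale) against BATF fold enrichment (vertical axis, log scale) at the 90 shared sites with RA, coloured by the class of the RARα peak, with a dashed line at equality. At 75 sites the BATF fold is the higher one and at 15 the RARα fold.

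The 15 shared sites with the smallest RARα p-value are given first, with positions in mm10. All carried a RARα control peak as well, and at 10 of them the RARα fold exceeded the BATF fold with RA. Across all 90 pairs this held at 15, and ranking by RARα p-value favours such sites. The first lay 1502 bp from Osgin1, an oxidative stress response gene, on chromosome 8 from 119423711 to 119424380. It had a RARα fold of 11.5 (53 fragments, -log10 p 42.3) and a BATF fold of 7.72, with summits 37 bp apart. The second lay on chromosome 8 from 13213295 to 13213815, and the annotation named 8 genes to it. These include Adprhl1, which was 4973 bp away, Cul4a, a scaffold of ubiquitin ligases, and Lamp1, the lysosomal membrane protein that appears on the surface of degranulating cytotoxic T cells. Here the RARα fold was 7.47 with 58 fragments, the most of any RARα peak on the chromosomes, and the BATF fold was 14.2.

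Smg6, an endonuclease of nonsense-mediated mRNA decay, was co-bound in intron 15. The RARα peak, from 75154008 to 75154518 on chromosome 11, had a fold of 9.86, and BATF had 13.9. Both values were above those of the control lists, 6.18 for RARα and 6.91 for BATF. Lef1 encodes a transcription factor of naive and memory T cells related to TCF1. Its intron 3 was co-bound on chromosome 3 from 131157177 to 131157789. The folds were 6.08 for RARα and 12.4 for BATF, and the summits lay 21 bp apart. In the control lists the values at this site were 10.7 and 13.1, so that the RARα value was lower with RA and the BATF value was close.

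Cytokine and chemokine receptor loci were among these sites. An intergenic site on chromosome 7 from 125511396 to 125511801, named to Il21r and Il4ra, had a RARα fold of 6.68 and a BATF fold of 8.51. It lay 40470 bp from Il4ra and 91451 bp from Il21r. Ifngr1, a chain of the interferon-γ receptor, was named at 2 of the sites, 1 in its intron 2 (folds of 6.76 for RARα and 5.88 for BATF) and 1 at 86944 bp from the gene (5.87 and 5.72). The intronic site had a RARα fold of 2.44 in the control. On chromosome 9 from 123740704 to 123741132, a site named to Ccr9, the gut-homing receptor, and to Cxcr6, a receptor of tissue-resident T cells, had a RARα fold of 6.32 and a BATF fold of 16.2, with summits 14 bp apart. It lay 26079 bp from Ccr9 and 65345 bp from Cxcr6.

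The other sites of this group were at genes of varied function. Ncoa3, a coactivator of nuclear receptors, had RARα and BATF folds of 6.62 and 5.62. Galm, the galactose mutarotase, had 6.09 and 6.002, with summits 2 bp apart. Lamc1, a laminin chain, had 6.41 and 4.29, and Sorcs2, a sortilin family receptor, had 5.91 and 4.96. At each of these 4 genes the RARα fold was the higher value. The site named to Gtf2e2 and Gsr, which encodes glutathione reductase, had 8.09 and 4.96 but a gap of 4462 bp between the peaks. An intergenic site on chromosome 6 from 89042579 to 89043491, named to Gm1965, had 9.86 and 6.61, and a site on chromosome 16 to which no gene was named had 5.40 and 4.38.

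**Figure D5:**
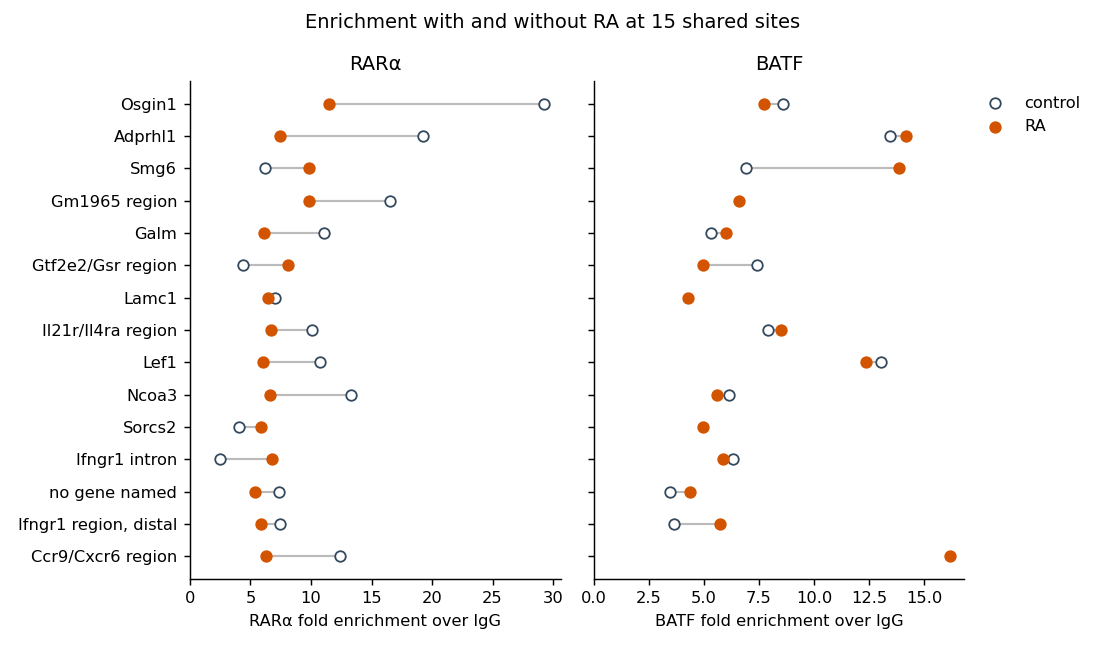
Fold enrichment over IgG at the 15 shared sites of smallest RARα p-value, for RARα (left) and BATF (right), with RA (filled) and in the control (open), and no open point where the control list had no peak within 5 kb. The RARα fold is lower with RA at 11 sites and higher at Smg6, the Gtf2e2 and Gsr region, Sorcs2 and the Ifngr1 intron.

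Ordered by BATF fold, the shared sites were led by Nfkb1, which encodes the p105 and p50 subunits of NF-κB. Its intron 3 had a BATF fold of 61.9 with 373 fragments, the deepest BATF summit at a shared site, and a RARα fold of 3.38 with 29 fragments. Inpp5d, the lipid phosphatase SHIP1, followed with a BATF fold of 35.0 and a RARα fold of 3.29. Mgat5, a glycosyltransferase that branches N-glycans on T cell receptors, had 19.6 and 3.29. At each of these genes the BATF fold stood far above the RARα fold, which was close to the RARα median of 3.35 at shared peaks. The order by BATF fold favours such sites.

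Zc3hav1, an antiviral RNA-binding protein, had a BATF fold of 17.1 and a RARα fold of 4.90, and Metrnl had 15.4 and 2.89. A site named to Tacc2 and Plekha1 had 13.4 and 2.78, and a site 18981 bp from Btla, an inhibitory receptor, had 12.6 and 3.04. The Ccr9, Adprhl1 and Smg6 sites above belong to this group of 10 as well. The RARα p-value was at most 1e-05 at 7 of the 10, and the RARα fold was lower with RA than in the control at 9, Smg6 being the other.

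The strongest RARα-only peak lay in an intron of 1110037F02Rik (chromosome 4, 11492716 to 11493650). It had a fold of 10.5 and was 65177 bp from the nearest BATF peak. The next, on chromosome 14 with a fold of 9.11, was named to Sdr39u1, Nfatc4 and others. P2rx7, the ATP-gated channel that RA is known to induce, had a promoter peak of 49 fragments on chromosome 5, from 122645229 to 122645574. Its fold was 4.61 over an IgG level of 9.85, the highest IgG level at any RARα-only peak. Dtx4, an E3 ligase of the deltex family, had a fold of 6.58 and lay 97161 bp from BATF.

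A peak named to Csf2, which encodes GM-CSF, had a fold of 5.19 and lay 83991 bp from the gene. A peak named to Gimap genes and to Tmem176a and Tmem176b had 4.92, with BATF 13623 bp away. A peak named to Scg5 and Arhgap11a had 6.32 and was the one among these 8 without a RARα control peak within 5 kb. The eighth, on chromosome 9, had 6.07 with no gene named and BATF 1732754 bp away. Thus 7 of these 8 strong RARα-only peaks had a RARα control peak, and 7 of 8 lay within 100 kb of a BATF peak.

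The strongest BATF-only peaks had folds of 46.4 to 64.2, against 61.9 and 35.0 at the strongest shared sites. They lay at Gosr1, a Golgi SNARE (64.2), at a cluster of Trem genes and Nfya (60.3), at a site on chromosome 10 with no gene named (55.4) and at a site named to Ifnar2 and Il10rb, receptor chains for interferon and IL-10 (52.9). Gnptab, which tags lysosomal enzymes, followed with 49.7, then Cubn with 48.7, 4930558C23Rik with 48.5 and a site named to Yae1d1 and Rala with 46.4. The nearest RARα peak with RA was between 202720 and 4635376 bp away from them. In the control lists, RARα peaks lay at the Trem cluster site (fold 2.52) and at the Ifnar2 site (4.12).

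The control lists place the 90 shared sites as follows. All 4 lists were called against the same IgG file, so the lists are not independent of each other and the counts are a description. Peaks of both factors lay within 5 kb in the control at 59 sites, of BATF alone at 24 and of RARα alone at 7, so none of the 90 was absent from both control lists. At the 59 sites the median RARα fold was 4.05 with RA and 5.90 in the control, lower with RA at 51. The median BATF fold was 6.09 with RA and 7.39 in the control, lower with RA at 38. The BATF pools differed in depth, with 16424269 fragments with RA and 23110180 in the control. The RARα pools were close, with 22475060 and 22655611. The part of depth in the lower BATF fold was not tested. In the RARα-only group, 32 of 475 peaks (6.74%, 4.81 to 9.36) had a RARα control peak within 5 kb.

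The 24 shared sites without a RARα control peak were weak in RARα, with a median fold of 2.78 and a highest of 3.71. The 443 RARα-only peaks without one also had a median of 2.78, with a highest of 6.32. Of the 24 shared sites, 13 were promoters (54.2%, 35.1 to 72.1), against 18 of the 66 with a RARα control peak (27.3%, 18.0 to 39.0). At the 66 sites with a RARα control peak the RARα fold was higher with RA at 9, among them the intron of Ifngr1 and the sites at Smg6, Sorcs2 and Smad3. The 7 sites without a BATF control peak had a median RARα fold of 5.91, with values down to 3.54 at Zfp747 and 2.83 at Gimap3. Of the 7, 4 stood among the 15 of smallest RARα p-value. These 4 were at Gm1965, Lamc1, Sorcs2 and Ccr9, where the nearest BATF control peak lay 139817, 92549, 90497 and 6336 bp away. The BATF fold of 16.2 with RA at the Ccr9 site was among the 10 highest of the 90 pairs. The BATF pool with RA had fewer fragments than the control pool, and the part of depth at these sites was not tested. The other 3 were at Clic5, Zfp747 and Gimap3, and at Zfp747 the nearest BATF control peak, at 5002 bp, lay just outside the limit.

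Seen from the control, 726 of the 1160 RARα peaks lay near a BATF control peak. With RA, 72 of these 726 sites (9.92%, 7.95 to 12.3) had peaks of both factors within 5 kb, 536 (73.8%, 70.5 to 76.9) of BATF alone, 7 (0.964%) of RARα alone and 111 (15.3%, 12.9 to 18.1) of neither. The median RARα fold in the control was 5.24 at the 72 sites and 3.19 at the 536. By this median, the sites that carried both factors with RA had a higher RARα fold in the control than the sites left in the BATF list only.

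The annotation named 776 genes to RARα peaks and 9354 to BATF peaks. In both lists were 373 genes, which is 48.1% of the RARα genes and 3.99% of the BATF genes, but only 199 of them were named on both sides of a shared site. Another 174 were named in both lists but not on both sides of a shared site, and 403 were named by RARα alone. Intergenic peaks can be named to many genes, with a median of 4 and up to 12 at the shared ones, whereas shared promoter and intron peaks had a median of 1. No gene was named at 170 RARα-only peaks (35.8%) and at 2 shared ones. As background for the gene groups below, 3.19% of the 21883 protein-coding genes of the RefSeq table were named by a RARα peak, 38.3% by a BATF peak and 0.832% on both sides of a shared site.

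Over 16 gene lists with 183 genes, 38 had a RARα peak (20.8%), 152 a BATF peak (83.1%) and 23 both at a shared site (12.6%). The lists hold genes picked for activated T cells and RA, with 15 ribosomal protein genes beside them. They are no random sample of genes, and the part of this choice in the shares was not tested. With peaks limited to 10 kb around the gene body, the counts were 17, 132 and 9.

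Among 13 genes of the AP-1 family, 11 had a BATF peak and 2 a RARα peak, with none co-bound. The highest BATF folds were at Bach2 (21.8), a repressor that competes with AP-1, Fosb (13.2), Junb (10.3) and Jund (9.19). The RARα peak named to Fos had a fold of 5.56 and lay 90503 bp from the gene, and the nearest BATF peak was 7645 bp from it. The one named to Atf3 had 3.54.

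Of the 9 IRF genes, 6 had a BATF peak and none a RARα peak. Irf2 led with 32.6, followed by Irf4 (10.9) and Irf8 (10.1), the partners of BATF at composite elements, and by Irf7 (8.92). All 12 effector and exhaustion transcription factors had a BATF peak, led by Runx3 (13.2), Zbtb32 (11.6), Nr4a3 (11.1) and Id2 (10.4), and none had a RARα peak. For these lists the sites with RA were thus BATF-only. A RARα peak was named to 3.19% of all protein-coding genes, so 0 in lists this short is close to the background.

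Of 9 memory and stemness factors, 8 had a BATF peak, with Klf2 at 22.8, Id3 and Lef1 at 12.4 and Bcl11b at 12.2. Lef1 was the one co-bound. Satb1, a chromatin organiser of T cells, had a RARα peak of fold 3.03 in an intron, 25078 bp from BATF. Of 11 effector cytokines, 8 had a BATF peak, led by Il10 (40.7), Ifng (13.7) and Fasl (10.6). Lif was co-bound at its promoter, with a RARα fold of 3.15 and a BATF fold of 7.12, and Csf2 had the distal RARα-only peak above.

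Of 9 cytotoxicity genes, 8 had a BATF peak, with Gzma at 16.5, and 4 a RARα peak. Srgn, the proteoglycan of cytotoxic granules, was co-bound 16280 bp from the gene with a RARα fold of 4.06. The BATF peak paired with it had a fold of 2.98, at percentile 1.73 of the BATF list. Lamp1 shared the peak with Adprhl1. Gzmb and Gzmc were named to the same RARα peak, which had a fold of 2.63 and lay 9418 bp from a BATF peak. None of these RARα peaks was within 10 kb of the gene. Of 6 chemokines, 5 had a BATF peak, with Ccl3 and Ccl5 named to one of fold 9.62, followed by Ccl1 (7.91) and Xcl1 (5.13), and none had a RARα peak.

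All 16 chemokine and homing receptors had a BATF peak, among them Ccr2 (33.85), S1pr1 (27.8) and Cxcr4 (22.1). Ccr9 and Cxcr6, named at the same site, were the 2 with a RARα peak. All 15 cytokine receptors had a BATF peak, with Il2rb at 27.8, Il2ra at 26.3, Il12rb1 at 21.1 and Il21r at 17.3. Il2rb, Ifngr1, Il21r and Il4ra had a RARα peak, and each was co-bound, with Il21r and Il4ra named to the same RARα peak. At Il2rb the RARα peak had a fold of 2.78 with 10 fragments and lay 70457 bp from the gene. The BATF peak paired with it had a fold of 5.95, and the fold of 27.8 belongs to another BATF peak named to Il2rb. With peaks limited to 10 kb around the gene body, 1 of the 15 was co-bound, Ifngr1. Of 13 inhibitory and costimulatory receptors, 10 had a BATF peak, led by Ctla4 (19.05), Btla (18.95), Tigit (15.7) and Tnfrsf9 (7.39), and Btla was the one co-bound.

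Of the 15 genes of retinoid receptors and metabolism, 4 were named by BATF (26.7%), 2 by RARα (13.3%) and none was co-bound. Over all protein-coding genes these shares were 38.3%, 3.19% and 0.832%, and a list of 15 is short. Rara itself had 6 BATF peaks, the strongest with a fold of 9.25 at the promoter, followed by Rxrb (6.60), Cyp26b1 (5.16), which degrades RA, and Rarg (3.73). Rarb, a classical RAR target, had an intronic RARα peak of fold 2.53 with a -log10 p of 3.01, at the limit of the list, and Tgm2 had one of 3.29. Neither of them had a BATF peak, and their RARα peaks were 324228 and 130814 bp away from one.

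Of 11 genes that RA induces in CD8 T cells, 8 had a RARα peak with RA, 9 a BATF peak and 5 were co-bound. The list was compiled with the study and earlier results of these data known, so it is no independent evidence of binding. Besides Ccr9 and Lif, the co-bound genes were Gfi1, a transcriptional repressor, with promoter folds of 3.28 for RARα and 11.02 for BATF, Nt5e, which encodes CD73, with a RARα fold of 3.33 at the promoter and a gap of 1361 bp, and Trim12a with a RARα fold of 4.56 and a gap of 930 bp. P2rx7 had 3 RARα peaks and Dtx4 had 2, all without a BATF peak named to the gene. Nrip1, a corepressor of ligand-bound nuclear receptors, had a RARα fold of 4.77 at 128945 bp from BATF. Asb2 had a BATF peak of fold 15.5 and no RARα peak with RA. Co-bound and separate RARα sites were therefore both found among RA-induced genes.

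Of 10 nuclear receptor corepressors and coactivators, 9 had a BATF peak, among them Ncoa2 at 23.8, Ep300 at 12.0 and Ncor1 at 7.81. RARα peaks were named to Ncoa3, which was co-bound, and to Ncoa1 (3.29), Crebbp (2.53) and Nrip1, which were not. All 15 genes of T cell receptor signalling had a BATF peak, led by Lck (15.2), Cd247 (13.9), Nfatc2 (11.1) and Lcp2 (10.8). Nfatc1 and Nfatc2 had weak RARα peaks of fold 2.53 and 2.78, which lay 12664 and 41380 bp from BATF.

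All 8 genes of the GIMAP cluster, GTPases that sustain lymphocyte survival, were co-bound, but they lie side by side on chromosome 6 and are named by the same peaks. One shared site had a RARα fold of 4.28 and a BATF fold of 4.44, and the other had 2.83 and 7.91. The third RARα peak of the cluster was the RARα-only one above. Of 15 cytosolic ribosomal protein genes, listed as housekeeping genes, 12 had a BATF peak, among them folds of 8.55 at Rpl27, 7.99 at Rpl4 and 7.91 at Rps14, and none had a RARα peak. A BATF peak was thus named to most housekeeping and effector genes alike.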

How the data were processed

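RARα and BATF ChIP-seq peaks were analysed in WT mouse CD8 T cells with RA, with the control lists as reference. Per the labels and file headers, the authors aligned paired-end reads to mm10 (GRCm38) with Bowtie2, called peaks with MACS 2.2.7.1 (p cutoffs 0.001 for RARα and 1e-05 for BATF, effective genome size 1870000000 bp) on 2 pooled files per list against 1 IgG file, and annotated them with genes, classes and repeats (HOMER). The deposited pileup is a signal in fragments at the summit. The deposited fold enrichment is a ratio with a constant of 1 added to the pileup and to the IgG level, from which the IgG level was recovered. The authors' peak caller gave a p-value and a q-value per peak on the -log10 scale. Per the file headers no q-values were computed, although their column is filled, and they served only as an alternative threshold.

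Depth was 22475060 fragments (RARα with RA) and 16424269 (BATF with RA), so a summit of few fragments gives a coarse fold. Peaks were paired by the gap between their ends (5 kb), each RARα peak with its nearest BATF peak. Each list was taken as one group, as labelled, and with 1 list per side only shares with Wilson 95% intervals, medians and quartiles were computed. Gene names were split from the annotation, and 99.1% of 9757 symbols matched a RefSeq table for GRCm38.p6. Sites named in the text were the 15 shared of smallest RARα p-value, the 10 shared of highest BATF fold, the 8 RARα-only of smallest p-value and the 8 BATF-only of highest fold, and, of the gene lists, members with a RARα peak and up to 4 members per list of highest BATF fold. Other names were chosen after their values were seen (Smad3 and the sites without a BATF control peak). The members and gene lists were chosen with earlier results of these data known. Alternatives varied the distance, thresholds, merging, scaling and gene assignment. Peaks on unplaced scaffolds were left out, and a few named genes are not reported here. The steps were tested on simulated data, and no sequence was read. The software was Python 3.11.15 (numpy 2.4.6, scipy 1.17.1, pandas 2.3.3, matplotlib 3.10.9).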

Additional observations from a re-analysis of the deposited data

Results flagged for a closer look

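The RARα RA list held 32 peaks on unplaced scaffolds, which lie outside the comparison of sites on chromosomes. The other lists held 12 (RARα control), 5 (BATF RA) and 2 (BATF control) there. The 32 peaks had RARα fold enrichments from 1.07 to 3.54 with a median of 1.44, and 8 of them lay within 5 kb of a BATF RA peak.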

How the results depend on the processing

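No paired analysis was possible because each side is 1 list called on pooled files. Of 74 values recomputed under an alternative, 44 were unmoved, 30 moved (outside the 95% interval, or over 1.5 times the count) and 0 reversed. The promoter share of RARα peaks, the RARα fold and the BATF fold were higher at shared sites in every one of these settings that gave them. The split by RARα control peak was not among the settings, and the cause was not tested. With an overlap of at least 1 bp, 12.2% of RARα and 0.697% of BATF peaks were shared, and the BATF fold was 6.94 (shared) and 5.29 (BATF-only). The BATF share was 0.889% within 1 kb and 1.61% within 10 kb. With RARα p-values of at most 1e-05, the shares were 45.8% and 0.748%, the shared promoter share 23.6%, the RARα fold 4.28 (shared) and 3.54 (RARα-only) and the RARα to BATF ratio 0.710. With q-values of at most 0.05 these were 56.6%, 0.586%, 23.3%, 4.78, 4.51 and 0.842, the RARα-only promoter share was 6.06% and the genes at shared sites numbered 103. With BATF folds of at least 5, 11.7% of RARα peaks were shared, the BATF fold was 7.25 (shared) and 6.61 (BATF-only), the genes numbered 135 and the ratio was 0.453. Without the added constant the RARα folds were 4.06 (shared) and 3.38 (RARα-only) and the BATF folds 7.50 and 6.72. With peaks within 10 kb of the gene body, 17 listed genes had a RARα peak and 9 a shared pair.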

Other observations

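A group of 174 genes was named by both lists but not on both sides of a shared site. They include Gzmb, Nfatc1, Nfatc2, Satb1, Crebbp, Fos and Csf2, with RARα folds of 2.63, 2.53, 2.78, 3.03, 2.53, 5.56 and 5.19. Vim, an intermediate filament gene, had a RARα fold of 4.55 with the nearest BATF peak 41375 bp from it and a BATF fold of up to 10.8. Sla, an adaptor that dampens T cell receptor signalling, had a RARα fold of 5.26 with BATF 11593 bp away and a BATF fold of up to 14.0. Both were chosen after their values were seen.

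At 3 shared promoters, also chosen after their values were seen, the RARα fold exceeded the BATF fold. Cfl2, a cofilin that severs actin filaments, had 5.56 and 5.06, Wars, a tRNA synthetase, had 4.80 and 4.70, and Dusp5, a phosphatase of ERK, had 3.79 and 3.76. The RARα fold with RA at Dusp5 was also above its control value of 3.27, while its BATF control value was 9.68.

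Shared sites were spread over the chromosomes, with 1 to 12 on each autosome, the most on chromosome 11 (12 of 32 RARα peaks). Chromosome 11 also held the most BATF peaks, 917. On the X chromosome 0 of 2 RARα peaks were shared.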
